A study of Homo sapiens with 6 samples.

Results

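Fragments of 47 interferon-stimulated genes were counted in SW1736 cells, a human line of anaplastic thyroid cancer, after 72 h at 2% O2 (hypoxia, 3 libraries) and after 72 h at 21% O2 (normoxia, 3 libraries). The genes were chosen by name, and all 47 had a row among the 20288 protein-coding genes of the deposited count table. A filter on low counts was passed by 41 of the 47, and these were tested for hypoxia against normoxia together with all other features, 11276 in all. The libraries were made from total RNA with CATS, a ligation-independent small RNA method, so that a count for a gene is a count of short fragments aligned to its transcript and not of whole mRNAs. Both groups are the same cell line with no other treatment named, and results from a single line hold for that line.

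Interferons are secreted cytokines that warn cells of infection. Type I interferons bind the IFNAR1 and IFNAR2 receptor, the kinases JAK1 and TYK2 phosphorylate STAT proteins, and STAT2 joins IRF9 in a complex that binds a DNA element called the ISRE in front of target genes. The induced genes encode sensors of viral RNA, enzymes that block viral translation or destroy RNA, proteins of the membrane that block viral entry, and the factors and brakes of the pathway itself. Several are also transcribed at a basal level, and some are direct targets of IRF1 or IRF3 without any secreted interferon.

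Total counts were 1469151 to 1781753 in hypoxic libraries and 1543856 to 1610177 in normoxic ones. Known hypoxia markers were called higher in the libraries labelled hypoxia, with log2 fold changes of 2.71 for miR-210-3p, the miRNA best known for its induction in hypoxia, and 3.67 for CA9, a carbonic anhydrase induced by HIF. Of 6 markers of thyroid follicular cells, the transcription factor PAX8 was present at 132 to 156 normalized CPM (counts scaled by TMM to a common library size) in hypoxia and 109 to 142 in normoxia. FOXE1 was at 19.5 to 32.5 CPM in hypoxia and 20.6 to 37.5 in normoxia, and NKX2-1 had 4 to 11 counts per library. TG, TSHR and SLC5A5, which define hormone-producing cells, had 0 to 10 counts per library.

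Among the interferon-stimulated genes, fragments of XAF1, SAMD9 and EPSTI1 rose in hypoxia and fragments of IFITM3 fell. Of these 4 calls, only that of XAF1 was kept under every alternative computed. Most of the other genes had values above 0 that did not pass the test: 34 of 41 log2 fold changes were positive (82.9%, against 49.4% of all 11276 features), with a median of 0.34 (all features -0.0037) and a range of -0.41 to 1.06. The 3 genes called higher were 7.32% of the 41 tested, against 0.621% of all features, and the 1 gene called lower stands beside 0.168% of all features (edgeR's quasi-likelihood test, Benjamini-Hochberg adjusted p under 0.05 over all features). At an unadjusted p under 0.05, 21 genes were higher (51.2%, against 5.71% of all features) and 2 were lower (against 4.62%), while DESeq2, or edgeR without normoxia replicate 3 or hypoxia replicate 1, gave 13 higher and 2 lower. In 20 genes every hypoxic library exceeded every normoxic library (48.8%, against 8.41% of all features), and in 2 genes every hypoxic library was below (against 6.91%). The genes were listed with earlier results of these data known, so these shares describe the list. The lean was not shared by 39 further interferon-induced genes tested outside the list, of which 41% were above 0 (median log2 fold change -0.10). Summed over 15 immune cell markers, the level was 24.3 to 43.5 CPM in hypoxia and 20.7 to 31.7 CPM in normoxia. Of these, CD14 and CD68 passed the filter with log2 fold changes of 0.59 and 0.75 (adjusted p = 0.624 and 0.51 from edgeR), CD3D was at 0 in every library, and PTPRC, the pan-leukocyte marker, had 1 to 5 counts in hypoxia and 3 to 9 in normoxia. The part of such cells in the values of the listed genes was not tested. Fewer cells that express a gene and less of its RNA per cell cannot be told apart in bulk libraries.

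**Figure D1:**
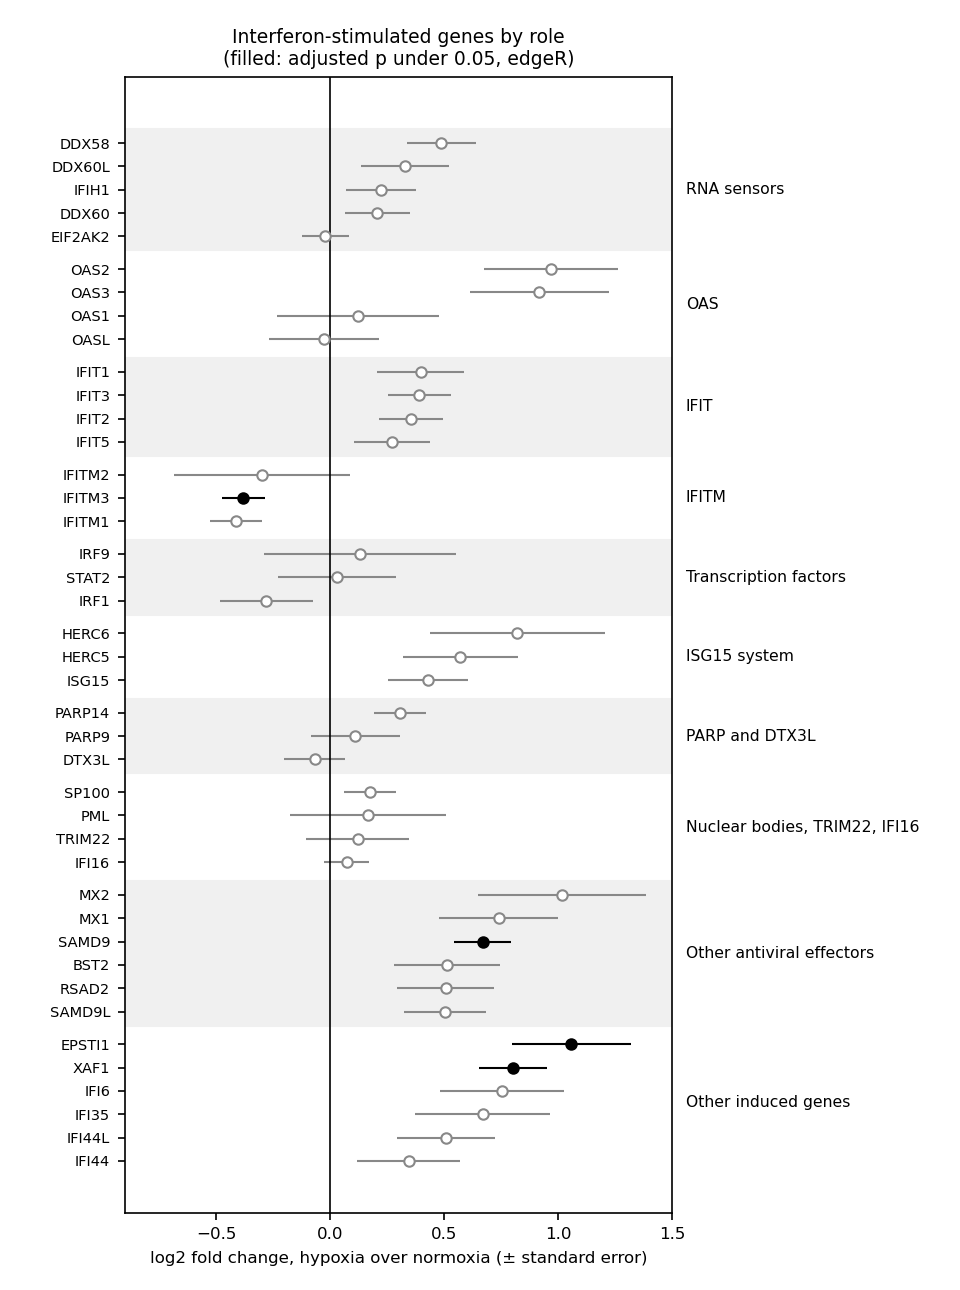
Log2 fold change of hypoxia over normoxia (x axis, ± standard error) for the 41 interferon-stimulated genes tested, grouped by role down the page. Filled points are the 4 genes called by edgeR at an adjusted p under 0.05 (XAF1, SAMD9, EPSTI1 and IFITM3), and 34 of the 41 points lie right of 0, while all 3 IFITM genes lie left of it.

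XAF1 rose in hypoxia and had the lowest adjusted p of the listed genes. It encodes a zinc-finger protein that antagonizes the apoptosis inhibitor XIAP and is induced by interferon. Its level was 115, 89.4 and 87.6 CPM in the hypoxic libraries, against 53.1, 56.6 and 57.8 CPM in the normoxic ones, and the groups did not overlap. The means were 97.4 ± 15.5 CPM in hypoxia and 55.8 ± 2.41 CPM in normoxia (SD, n = 3 each). The log2 fold change was 0.80 (standard error, SE, 0.150, edgeR adjusted p = 0.00224). Of the 25-base windows of the XAF1 transcript, 6.01% occurred in a protein-coding transcript of another gene. In GRCh38, XAF1 occupies positions 6755447 to 6775647 of chromosome 17, plus strand. It was called under every alternative computed, including each fit that left out 1 library, where the log2 fold change ranged from 0.66 to 0.87.

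SAMD9 encodes a large cytoplasmic protein that restricts poxviruses and inhibits translation and cell growth. It had 134, 142 and 128 CPM in hypoxia, against 88.8, 83.5 and 81.9 CPM in normoxia, so that the lowest hypoxic library lay above the highest normoxic one. The log2 fold change was 0.67 (SE 0.126, edgeR adjusted p = 0.00239). Its paralog SAMD9L, adjacent on the minus strand of chromosome 7 (SAMD9 from 93099513 to 93118023, SAMD9L from 93130056 to 93148385), had 52.7, 55.9 and 56.3 CPM in hypoxia, against 44.1, 32.8 and 39.4 CPM in normoxia. Its log2 fold change of 0.50 did not pass the test (edgeR adjusted p = 0.226), although its groups did not overlap either. Only 0.162% of the 25-base windows of the SAMD9 transcript occurred in a protein-coding transcript of another gene. Without hypoxia replicate 2, SAMD9 was not called (log2 fold change 0.62, adjusted p = 0.0619).

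EPSTI1, first described as a gene induced in breast cancer epithelium by stromal cells, had the largest log2 fold change of the 41. Its levels were 30.6, 23.6 and 33.4 CPM in hypoxia, against 14.3, 16.7 and 10.8 CPM in normoxia, with no overlap. The log2 fold change was 1.06 (SE 0.262, edgeR adjusted p = 0.0367). None of its 25-base windows occurred in a protein-coding transcript of another gene. The gene occupies positions 42886388 to 42992271 of chromosome 13, minus strand. The gene was not called by DESeq2 (adjusted p = 0.159), by limma-voom (adjusted p = 0.0515) or with the replicate number as a block (adjusted p = 0.06). Among the fits with 1 library left out it was called only without normoxia replicate 2 (adjusted p = 0.0255), and the adjusted p was 0.131 and 0.16 when normoxia replicate 1 or 3 was omitted, and 0.136, 0.0665 and 0.131 when hypoxia replicate 1, 2 or 3 was, at log2 fold changes of 0.90 to 1.19.

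**Figure D2:**
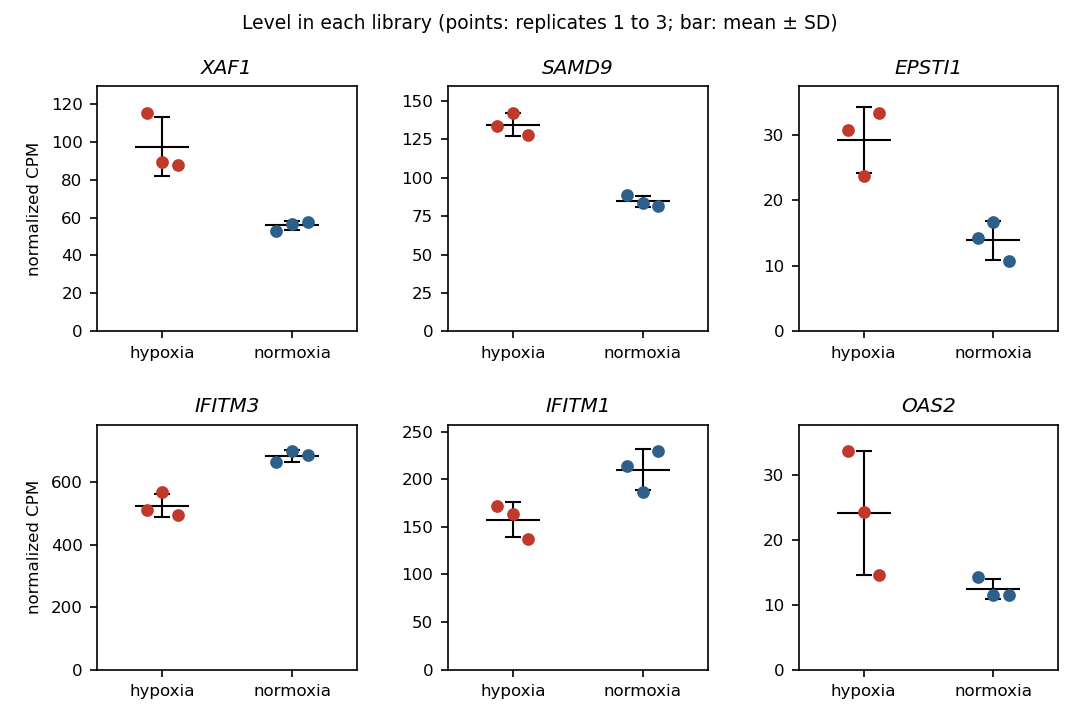
Normalized CPM (y axes, from 0) of 6 genes in each hypoxic and normoxic library, with the mean and SD of 3 replicates as bars. XAF1, SAMD9 and EPSTI1 are higher in every hypoxic library, IFITM3 and IFITM1 are lower in every hypoxic library, and OAS2 ranges from 14.6 to 33.7 CPM in hypoxia against 11.4 to 14.3 CPM in normoxia.

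The ISRE that the complex of STAT2 and IRF9 binds is built from the letters GAAA, repeated after a spacer of 2 bases (GAAANNGAAA on either strand). It was searched in RefSeq promoter windows of GRCh38.p14, 300 bases long (250 before and 50 after each start), which 37 of the 47 genes had. These letters were present in 25 of the 37 (67.6%), against 4.38% of all 27305 genes with such windows. The variant with a 1-base spacer (GAAANGAAA), which may overlap the first form, was present in 15 of 37 (40.5%), against 3.87% of all genes. XAF1 had only the variant, which was added to the search after its sequence was seen. The stretches below carry the match of the 4 called genes, of IFITM1, and of ISG15 and IFIT1, long-studied interferon targets. They are printed 5′ to 3′ on the strand of the gene, up to 30 bases to each side, and capitals mark the repeated motif with its spacer.
XAF1 (chr17:6756011-6756049, plus strand): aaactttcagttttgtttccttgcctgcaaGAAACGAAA
SAMD9 (chr7:93118076-93118145, minus strand): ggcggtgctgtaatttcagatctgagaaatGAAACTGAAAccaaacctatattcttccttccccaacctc
EPSTI1 (chr13:42992252-42992321, minus strand): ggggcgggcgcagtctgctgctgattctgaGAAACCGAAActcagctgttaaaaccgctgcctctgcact
IFITM3 (chr11:320861-320942, minus strand): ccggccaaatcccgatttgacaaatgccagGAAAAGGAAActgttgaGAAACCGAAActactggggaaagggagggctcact
IFITM1 (chr11:313970-314043, plus strand): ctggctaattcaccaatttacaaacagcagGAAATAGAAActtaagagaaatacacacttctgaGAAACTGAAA
ISG15 (chr1:1013354-1013429, plus strand): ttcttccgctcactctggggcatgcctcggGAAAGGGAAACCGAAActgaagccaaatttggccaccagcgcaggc
IFIT1 (chr10:89392477-89392559, plus strand): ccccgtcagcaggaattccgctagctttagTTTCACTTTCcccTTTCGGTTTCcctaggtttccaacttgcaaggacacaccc

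GAAANNGAAA was thus found both before SAMD9 and EPSTI1, which were higher, and before IFITM3 and IFITM1. Of the genes tested, 23 with GAAANNGAAA in the window had a median log2 fold change of 0.39 (range -0.41 to 1.06). The 11 with a window but without this form, XAF1 among them, had one of 0.18 (range -0.28 to 0.82), so the ranges overlapped. For GAAANGAAA, the median was 0.44 in 14 genes with it (range 0.07 to 0.92). It was 0.25 in 20 without it (range -0.41 to 1.06), and these differences were not tested. The core of the hypoxia response element (ACGTG or GCGTG on either strand) was found in 15 of the 37 genes (40.5%), against 52.4% of all genes. The GAS motif (TTCNNNGAA), the element known from genes that respond to interferon gamma, was found in 11 of the 37 (29.7%), against 9.38%. In PARP14, IFITM1, EPSTI1, IFI27, IFI35, BST2 and MX1 a GAS match shared bases with a GAAA repeat already counted. This share is therefore not separate from those above. The matches of DDX60, IRF1, OAS1 and IRF9 stood apart from such repeats, as did another match of BST2. These matches describe the letters of the windows, and binding was not measured.

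The counts by role that follow are of few genes each, and stand beside 5.71% of all features that were higher at an unadjusted p under 0.05 and 49.4% that had a log2 fold change above 0. The split of the listed genes into roles was a choice made for this description. A share within a role describes the genes placed there and is no test of the role. Of the 5 sensors of viral RNA tested, 4 had values above 0, 1 was higher at an unadjusted p under 0.05 and none passed after adjustment. DDX58, which encodes RIG-I and detects RNA with a triphosphate end, had 95.6, 112 and 86.2 CPM in hypoxia, against 75.2, 54.6 and 80.0 CPM in normoxia, with no overlap and a log2 fold change of 0.49 (edgeR adjusted p = 0.142). IFIH1, or MDA5, which detects long double-stranded RNA, and the helicases DDX60 and DDX60L had log2 fold changes of 0.22, 0.21 and 0.33. EIF2AK2, or PKR, the kinase that halts translation when it binds double-stranded RNA, was the most abundant sensor and did not separate. It had 363, 300 and 326 CPM in hypoxia, against 363, 308 and 331 CPM in normoxia (log2 fold change -0.02, edgeR adjusted p = 0.974). DHX58, or LGP2, a regulator of RIG-I and MDA5, was below the filter.

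The OAS enzymes make 2′-5′-linked oligoadenylates that switch on RNase L, and of the 4 tested 2 were higher at an unadjusted p under 0.05 and none passed after adjustment. OAS2 had 33.7, 24.2 and 14.6 CPM in hypoxia, against 14.3, 11.6 and 11.4 CPM in normoxia, and the lowest hypoxic library lay just above the highest normoxic one (log2 fold change 0.97, edgeR adjusted p = 0.129). OAS3 had 30.6, 20.8 and 30.6 CPM in hypoxia, against 20.1, 17.4 and 5.71 CPM in normoxia (log2 fold change 0.92, edgeR adjusted p = 0.185). The other members of the family were near 0: OAS1 had a log2 fold change of 0.12 and OASL, which lacks the enzyme activity and aids RIG-I, one of -0.03 (21.9 to 25.7 CPM in hypoxia, 18.4 to 30.5 CPM in normoxia). The values of both depended on single libraries: OAS2 was called when hypoxia replicate 3, its lowest hypoxic library, was omitted (log2 fold change 1.22, adjusted p = 0.0346) but was at 0.66 (adjusted p = 0.519) when hypoxia replicate 1 was, and OAS3 was at 0.53 (adjusted p = 0.542) when normoxia replicate 3 was. OAS1, OAS2 and OAS3 are neighbours on chromosome 12 (112905856 to 113011723), and the differences between these neighbours were not tested.

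The IFIT proteins, which bind viral RNA or translation factors through tetratricopeptide repeats, had log2 fold changes of 0.27 to 0.40, and of the 4 tested 3 were higher at an unadjusted p under 0.05 and none passed after adjustment. IFIT3 had 105, 89.4 and 102 CPM in hypoxia, against 67.4, 75.8 and 82.5 CPM in normoxia (log2 fold change 0.39, edgeR adjusted p = 0.226). IFIT2 had 92.5, 92.2 and 83.4 CPM in hypoxia, against 75.2, 72.0 and 62.9 CPM in normoxia, also without overlap (0.35, adjusted p = 0.324). IFIT1, which seizes RNA whose cap lacks full methylation, had 75.4, 42.7 and 68.1 CPM in hypoxia, against 55.7, 39.8 and 45.1 CPM in normoxia, and hypoxia replicate 2 lay among the normoxic libraries (0.40, adjusted p = 0.468, and 0.22 to 0.61 with 1 library omitted). IFIT5 had the lowest of these log2 fold changes, 0.27. All 4 genes lie together on chromosome 10 between 89283694 and 89421605.

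IFITM3 fell, and the other IFITM genes had values below 0. They encode small membrane proteins that stop enveloped viruses from fusing with the cell, and IFITM3 acts in endosomes. IFITM3 fell to 513, 568 and 497 CPM in hypoxia, against 665, 701 and 688 CPM in normoxia. The means were 526 ± 37.2 CPM in hypoxia and 685 ± 18.1 CPM in normoxia (SD, n = 3 each), and the log2 fold change was -0.38 (SE 0.0949, edgeR adjusted p = 0.0378). IFITM1, found at the cell surface, had 172, 163 and 138 CPM in hypoxia, against 214, 187 and 230 CPM in normoxia, likewise without overlap, and its log2 fold change of -0.41 did not pass the test (edgeR adjusted p = 0.0874). IFITM2 was low, with 5.56 to 8.58 CPM in hypoxia and 8.36 to 10.4 CPM in normoxia (log2 fold change -0.30, adjusted p = 0.852). The 3 transcripts are alike. Of their 25-base windows, 33.9% in IFITM3, 23.0% in IFITM1 and 13.5% in IFITM2 occur in a protein-coding transcript of another gene. Nearly all of these lie within the family, so counts of single IFITM genes are uncertain. The sum over the 3, which depends less on how reads were split among them, was 694, 739 and 640 CPM in hypoxia, against 890, 897 and 927 CPM in normoxia. IFITM3 was not called by DESeq2 (adjusted p = 0.0694), with the replicate number as a block (adjusted p = 0.0846) or with any 1 library left out (adjusted p of 0.0676 to 0.157, log2 fold changes of -0.45 to -0.34), while without normoxia replicate 2 IFITM1 was called instead (log2 fold change -0.49, adjusted p = 0.0234).

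**Figure D3:**
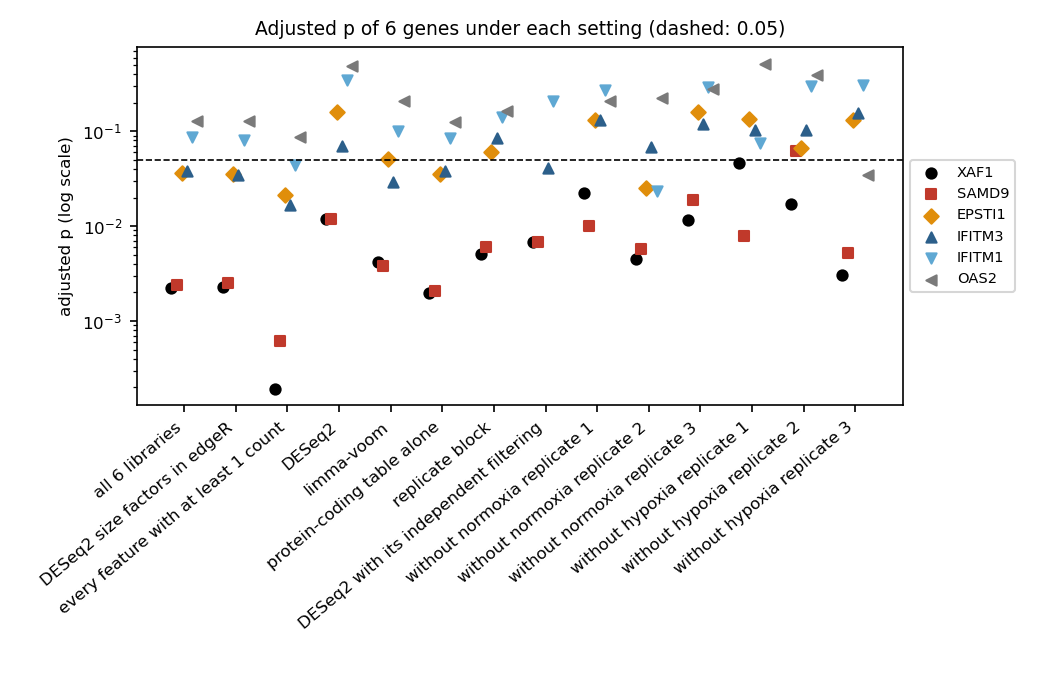
Adjusted p (y axis, log scale) of 6 genes with all 6 libraries and under each other setting (x axis), with the dashed line at 0.05; a point is missing where DESeq2's independent filtering gave no adjusted p. XAF1 lies under the line in every setting and SAMD9 in every setting but 1 (without hypoxia replicate 2, 0.0619), whereas IFITM3 lies above it whenever a library is left out.

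Of the 3 transcription factors tested, none passed the test, 0 had an unadjusted p under 0.05 and the groups overlapped in each. STAT2 had a log2 fold change of 0.03 and IRF9, its DNA-binding partner, one of 0.13. IRF1, a factor that drives part of the same genes and responds to interferon gamma, was the most abundant of the group, with 42.3, 32.9 and 29.2 CPM in hypoxia and 42.1, 34.1 and 50.8 CPM in normoxia (log2 fold change -0.28, edgeR adjusted p = 0.69). In the transcript of IRF1, 16.8% of the 25-base windows occur in protein-coding transcripts of other genes. IRF7, the factor that amplifies interferon production, was below the filter.

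The ISG15 system attaches the ubiquitin-like protein ISG15 to other proteins. All 3 of its listed genes that were tested were above 0 at an unadjusted p under 0.05 (against 5.71% of all features). None of them passed the test. UBE2L6, the conjugating enzyme of the system, was outside the list and went the other way. Its log2 fold change was -0.55 (edgeR unadjusted p = 0.0313, adjusted p = 0.411). ISG15 itself had 57.0, 53.6 and 58.4 CPM in hypoxia, against 46.0, 43.7 and 35.6 CPM in normoxia, with no overlap (log2 fold change 0.43, edgeR adjusted p = 0.337). HERC5, the main human ligase for ISG15, had 23.3, 27.1 and 25.02 CPM in hypoxia, against 14.9, 19.3 and 16.5 CPM in normoxia (0.57, adjusted p = 0.399). HERC6, its neighbour on chromosome 4, had 15.3, 10.95 and 12.5 CPM in hypoxia and 7.13, 11.6 and 3.17 CPM in normoxia, where the groups overlapped (0.82, adjusted p = 0.451). With normoxia replicate 2 omitted HERC6 was at 1.32, and with normoxia replicate 3 omitted at 0.46, on the log2 scale. USP18, the protease that removes ISG15 and also restrains the receptor, was below the filter.

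Of the mono-ADP-ribosyltransferases and their partner DTX3L, 1 of 3 was higher at an unadjusted p under 0.05 and none passed after adjustment. PARP14, a large cytoplasmic enzyme, had 174, 171 and 175 CPM in hypoxia, against 127, 135 and 158 CPM in normoxia with no overlap (log2 fold change 0.31, edgeR adjusted p = 0.27). PARP9 and DTX3L, a ligase that forms a dimer with PARP9, had log2 fold changes of 0.11 and -0.07 and overlapping groups. Their genes overlap head to head on chromosome 3, at 122527924 to 122564577 and 122564338 to 122575203. How reads from the shared stretch were assigned was not checked. SP100 and PML, scaffolds of nuclear bodies, TRIM22 and the DNA sensor IFI16 had log2 fold changes of 0.07 to 0.18, and none had an unadjusted p under 0.05. IFI16 was the most abundant of these, with 444, 470 and 439 CPM in hypoxia and 430, 388 and 468 CPM in normoxia.

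The other antiviral effectors were all above 0, by 0.50 to 1.02 on the log2 scale, and each of the 6 tested had an unadjusted p under 0.05 (against 5.71% of all features higher), although only SAMD9 passed after adjustment. MX1, a dynamin-like GTPase that traps viral ribonucleoproteins, had 60.1, 39.2 and 36.8 CPM in hypoxia, against 40.2, 25.7 and 15.9 CPM in normoxia, with overlap through normoxia replicate 1 (log2 fold change 0.74, edgeR adjusted p = 0.252). When that library was omitted MX1 was called (log2 fold change 1.13, adjusted p = 0.0369), but it was at 0.46 (adjusted p = 0.544) without normoxia replicate 3 and at 0.48 (adjusted p = 0.58) without hypoxia replicate 1. MX2, which blocks HIV at the nuclear pore and adjoins MX1 on chromosome 21, had 16.5, 20.2 and 8.34 CPM in hypoxia and 9.72, 8.36 and 4.45 CPM in normoxia (1.02, adjusted p = 0.24). RSAD2, or viperin, which makes a chain-terminating nucleotide, had 45.4, 31.7 and 38.2 CPM in hypoxia, against 23.97, 29.6 and 27.3 CPM in normoxia, with no overlap (0.51, adjusted p = 0.362). BST2, or tetherin, which holds budding virions at the cell surface, had 30.6, 29.98 and 29.2 CPM in hypoxia, against 16.2, 23.1 and 23.5 CPM in normoxia (0.51, adjusted p = 0.424).

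Of the listed genes placed in no other role, all 6 tested had every hypoxic library above every normoxic one (against 8.41% of all features). XAF1 and EPSTI1 were the 2 that passed the test. IFI6, a small protein of the endoplasmic reticulum and mitochondria, had 43.5, 35.7 and 45.9 CPM in hypoxia, against 31.7, 10.3 and 31.7 CPM in normoxia (log2 fold change 0.75, edgeR adjusted p = 0.27), and was at 0.39 (adjusted p = 0.581) when normoxia replicate 2, its lowest library, was omitted. IFI35, a partner of NMI, had 18.4, 21.9 and 14.6 CPM in hypoxia, against 13.0, 10.9 and 10.8 CPM in normoxia (0.67, adjusted p = 0.404). IFI44L had 40.5, 33.4 and 36.8 CPM in hypoxia, against 31.1, 19.9 and 26.7 CPM in normoxia (0.51, adjusted p = 0.376). Its neighbour IFI44 on chromosome 1 had a log2 fold change of 0.34 with an unadjusted p above 0.05.

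Of the listed genes, 6 were too low to pass the filter, namely IRF7, USP18, ISG20, CMPK2, DHX58 and IFI27. Pooled over 3 libraries each, IRF7 had 28 counts in hypoxia and 10 in normoxia, a ratio of 2.72 after scaling for depth (95% exact binomial interval 1.28 to 6.28). USP18 had 20 counts in hypoxia and 6 in normoxia (ratio 3.24, interval 1.26 to 9.87), and ISG20, an exonuclease, had 24 in hypoxia and 9 in normoxia (2.59, interval 1.16 to 6.34). For CMPK2, a nucleotide kinase beside RSAD2 on chromosome 2, the counts were 25 in hypoxia and 21 in normoxia (1.16, interval 0.622 to 2.18). DHX58 had 13 in hypoxia and 14 in normoxia (0.903, interval 0.391 to 2.07), and IFI27 had 7 in hypoxia and 4 in normoxia (1.70, interval 0.433 to 7.93). The intervals cover counting error only. When every feature with at least 1 count was tested, none of the 6 was called (adjusted p of 0.514 to 0.976 from edgeR).

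Per kilobase of transcript, the listed genes spanned a wide range of levels in these cells. IFITM3 was first in both states, with 651 CPM per kb in hypoxia and 848 in normoxia. It was followed by IFITM1 (184 in hypoxia, 246 in normoxia), IFI16 (157 in hypoxia, 149 in normoxia) and ISG15 (71.5 in hypoxia, 53.0 in normoxia). The median of all protein-coding features tested was 8.43 CPM per kb in hypoxia and 8.34 in normoxia. XAF1 (26.9 in hypoxia, 15.4 in normoxia) and SAMD9 (19.6 in hypoxia, 12.4 in normoxia) lay above it, and EPSTI1 was at 9.24 in hypoxia and 4.40 in normoxia. The lowest genes tested were HERC6 and PML, at 3.42 and 2.21 CPM per kb in hypoxia against 1.93 and 1.99 in normoxia.

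**Figure D4:**
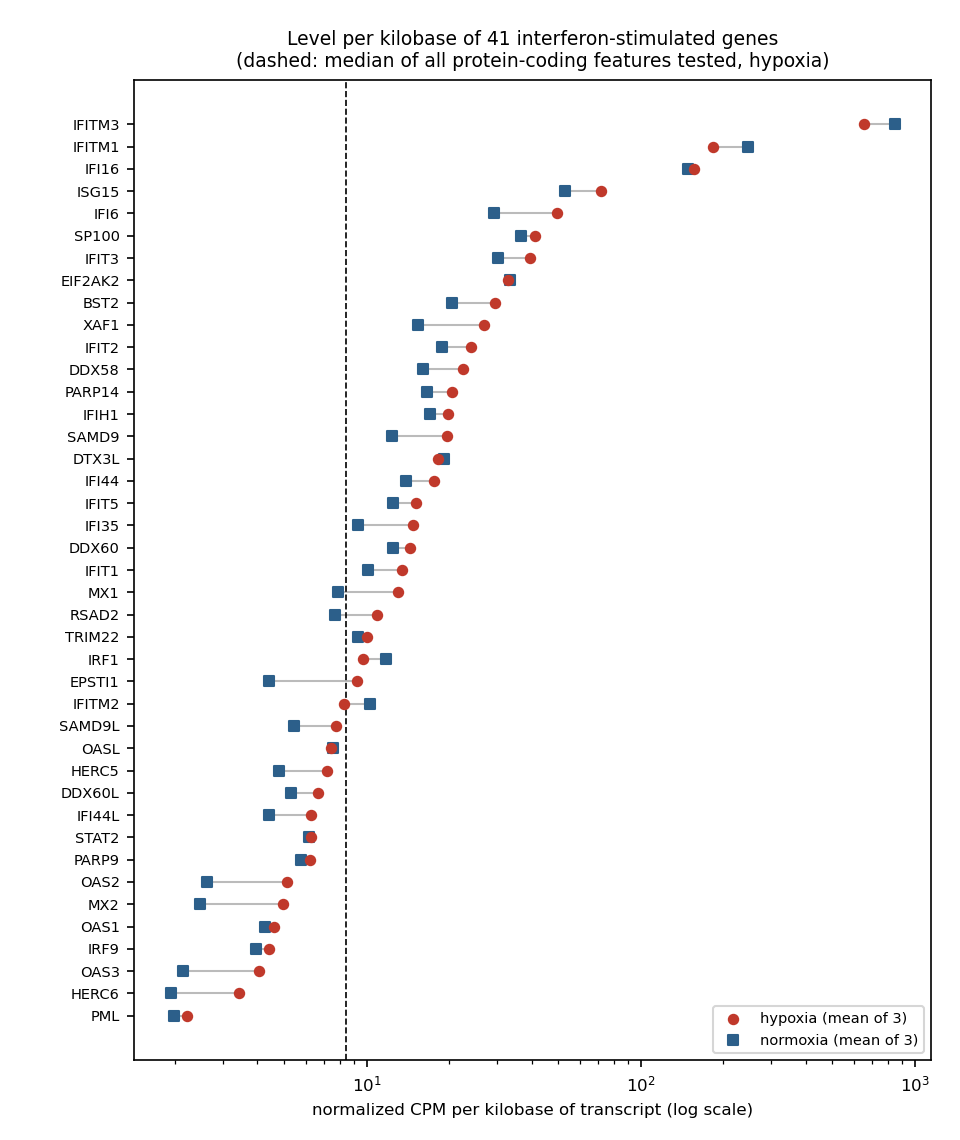
Mean normalized CPM per kilobase of transcript (x axis, log scale) of the 41 genes tested, in hypoxia (circles) and normoxia (squares), ordered down the page by the hypoxic level. IFITM3 leads at 651 in hypoxia and 848 in normoxia, and PML is last at 2.21 in hypoxia and 1.99 in normoxia, while the dashed line is the hypoxic median of all protein-coding features tested, 8.43.

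The upstream arm of the pathway showed no call. Of 21 interferon genes none passed the filter, and their summed counts were 22, 13 and 20 in hypoxia, against 19, 21 and 9 in normoxia. Of these, IFNB1, the beta interferon, had 1, 1 and 3 counts in hypoxia and 0 in each normoxic library. The receptor chains IFNAR1, IFNAR2 and IFNGR2 had log2 fold changes of -0.07, 0.02 and 0.12, and IFNGR1, the ligand-binding chain for interferon gamma, had -0.33 (adjusted p = 0.237). The kinases JAK1, JAK2 and TYK2 had -0.22, -0.17 and -0.18 (adjusted p = 0.469, 0.767 and 0.891), and in JAK1 the groups did not overlap (190 to 195 CPM in hypoxia, 224 to 225 CPM in normoxia). In all, 7 of 9 receptor and kinase genes were tested, with a median log2 fold change of -0.17 and 2 lower at an unadjusted p under 0.05 (IFNGR1 and JAK1, against 4.62% of all features). The 9 sensing adaptors tested, such as MAVS and TBK1, had a median of -0.08, with none called and 0 at an unadjusted p under 0.05. Among the 8 negative regulators tested, with a median of -0.19, the log2 fold change of SOCS3, a feedback inhibitor of JAK kinases, was -0.47 (edgeR adjusted p = 0.318).

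**Figure D5:**
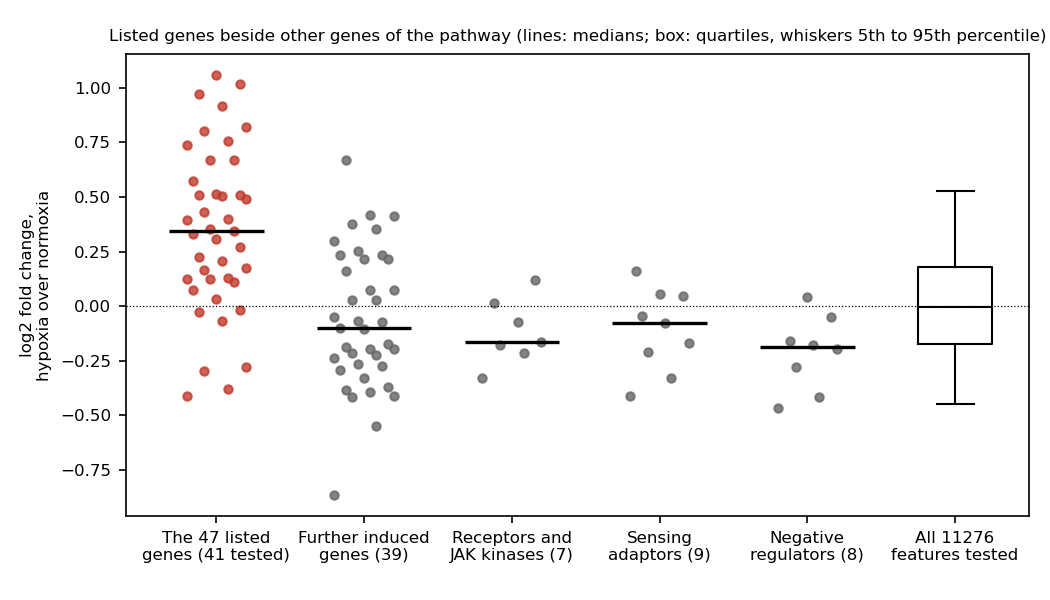
Log2 fold change of hypoxia over normoxia (y axis) for the listed interferon-stimulated genes, for 4 other lists of the pathway, and for all 11276 features tested (box with quartiles, whiskers at the 5th and 95th percentiles); horizontal lines are medians. The median is 0.34 for the 41 listed genes, and -0.10, -0.17, -0.08 and -0.19 for further induced genes, receptors and kinases, sensing adaptors and negative regulators.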

How the data were processed

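Total RNA of SW1736 cells was used for small RNA libraries. Per the labels, FastQC, Bowtie and Bowtie2 and the hg38 build were used (the study's methods name eXpress for extracting the reads per transcript type), and the deposited tables hold the authors' raw counts per mature miRNA (miRBase release 22) and per protein-coding transcript (GENCODE release 28), with 1 transcript per gene. No value was normalized by the authors. Both tables were joined, filtered with filterByExpr, TMM-scaled and compared between hypoxia and normoxia by edgeR 4.0.16 (quasi-likelihood, robust, Benjamini-Hochberg adjustment over 11276 features) in R 4.3.3. CPM per kb uses the transcript length in the table. Gene positions are from GENCODE release 44 on GRCh38, promoters from RefSeq (GRCh38.p14).

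The 47 genes and the other lists were chosen with earlier results of these data known. Values per library are given for genes called or at an unadjusted p under 0.05 and for the most abundant gene of each role. Genes below the filter have pooled counts with an exact binomial interval. Alternatives were DESeq2 size factors, DESeq2 1.42.0, limma-voom (limma 3.58.1), every feature with at least 1 count, the protein-coding table alone, the replicate number as a block, and each library left out. The scripts were tested on simulated data. Of 50 features set to a 1.5-fold rise, 17 were called, and of 50 set to a 2-fold rise, 42. Of 44 set to a fold of 0.5, 33 were called, and 10 unchanged features were called too. A gene that was not called may thus still differ. No 2 libraries of a group agreed within sampling noise. The labels number the replicates and leave their source (separate cultures or not) unstated, so p-values measure only the spread between these libraries, which may be technical.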

Additional observations from a re-analysis of the deposited data

How the results depend on the processing

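With 1 library left out at a time, 1 to 3 listed genes were called higher (XAF1 alone without hypoxia replicate 2), 0 to 1 lower, and the median log2 fold change was 0.30 to 0.37. The genes behind a count of 3 were not always those of the full data: MX1 replaced EPSTI1 without normoxia replicate 1, and OAS2 without hypoxia replicate 3. With DESeq2 on the same features, 0 genes were called lower (IFITM3 adjusted p = 0.0694) and 2 higher (EPSTI1 adjusted p = 0.159). With DESeq2's own independent filtering, added after seeing the data, IFITM3 was called and EPSTI1 had no adjusted p. limma-voom did not call EPSTI1 (adjusted p = 0.0515). Testing every feature with at least 1 count called 2 lower, IFITM3 and IFITM1. Same-numbered libraries showed no sign of pairing (correlation of deviations -0.095 to 0.003, and -0.083 to 0.089 between libraries of unlike number). With 3 libraries per group this cannot show that the samples were unpaired. With the replicate number as a block 0 genes were called lower (IFITM3 adjusted p = 0.0846) and 2 higher (EPSTI1 adjusted p = 0.06). In each of these settings 2 genes, IFITM3 and IFITM1, were lower at an unadjusted p under 0.05. DESeq2 size factors in edgeR and the protein-coding table alone called the same 3 and 1 genes as the full data.

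In the fits with a library omitted, 9 genes, none of them called, changed sign. Their log2 fold changes ranged from -0.10 to 0.043 for EIF2AK2, -0.23 to 0.35 for OAS1, -0.20 to 0.16 for OASL, -0.15 to 0.17 for STAT2, -0.22 to 0.30 for IRF9, -0.016 to 0.23 for PARP9, -0.20 to 0.040 for DTX3L, -0.022 to 0.48 for PML and -0.081 to 0.27 for TRIM22. The cause of these changes was not tested, beyond the smaller number of libraries. Depth limits the scarcer genes: at under 30 mean normalized CPM in normoxia, 20 of 20 genes tested had a standard error above 0.2 on the log2 scale.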

Other observations

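A further 48 genes that interferon induces, outside the list of 47, had unlike values. Of the 39 that passed the filter, none was called by edgeR, 16 had a log2 fold change above 0 (against 49.4% of all features), and the median was -0.10. At an unadjusted p under 0.05, 2 were higher (5.13%, against 5.71% of all features) and 5 were lower (against 4.62%). The share of higher genes was near that of all features and the share of lower genes was above it. The values of single genes are given as a description. SHISA5, a protein of the endoplasmic reticulum and nuclear membrane, had 47.8, 47.8 and 33.4 CPM in hypoxia, against 32.4, 26.4 and 22.9 CPM in normoxia (log2 fold change 0.67, edgeR adjusted p = 0.151). TRIM25, the ubiquitin ligase that activates RIG-I, had 74.2, 69.8 and 73.7 CPM in hypoxia, against 56.4, 54.6 and 56.5 CPM in normoxia (0.38, adjusted p = 0.336). On the lower side, MOV10, an RNA helicase, had 5.52, 8.65 and 9.03 CPM in hypoxia, against 12.3, 12.2 and 17.8 CPM in normoxia (-0.87, adjusted p = 0.33). UBE2L6, the conjugating enzyme of the ISG15 system, had 24.5, 17.3 and 16.7 CPM in hypoxia, against 35.0, 23.8 and 27.3 CPM in normoxia (-0.55, adjusted p = 0.411), whereas ISG15 and its ligase HERC5 had log2 fold changes of 0.43 and 0.57. The guanylate-binding protein GBP1, TRIM14 and the giant ubiquitin ligase RNF213 had log2 fold changes of -0.33, -0.41 and -0.29. The 2 lists were both chosen with earlier results known, and the difference between them was not tested.

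Of the 47 listed genes, 26 lie within 500 kb of another listed gene, in 10 clusters, and the share among other genes was not computed. In the chromosome 11 cluster, IFITM3 and IFITM1 were lower in every hypoxic library, while IRF7 (612553 to 615983) had 12, 9 and 7 counts in hypoxia, against 4, 4 and 2 in normoxia.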
